A study of Mus musculus with 8 samples.

Results

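DNA methylation was described at 5 mouse genes, Mapk15, Mmel1, Gm13112, Gm13049 and Gfi1, whose 1000 bp tiles at annotated promoters were selected on measured values, namely higher methylation in tumors given both drugs than in tumors given vehicle. The members were all cytosines within the 5 gene bodies and the 5000 bp upstream of each (GENCODE M21, mm10/GRCm38) that had 10 or more reads in any of the 8 libraries. There were 491 such cytosines of 3062363 in the series, 123 at Mapk15, 91 at Mmel1, 45 at Gm13112, 33 at Gm13049 and 244 at Gfi1, with the overlapping Mmel1 and Gm13112 sharing the cytosines between them. Of the 491, 168 had 10 reads in both vehicle and both combination libraries and 94 had them in all 8 libraries. The values that chose the tiles, the combination against vehicle, are given as a description without p-values or q-values. Calls among them serve only to describe, since the choice shaped them.

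The tumors grew from NIC-5231 cells, a mouse mammary tumor line, in the mammary fat pad of immunodeficient NSG mice that were 5 to 7 weeks old when the cells were injected. The 4 groups received vehicle (saline with PEG and DMSO), C29 (10 mg/kg per injection), 5-azadC (dosed at 1 mg/kg), or both at these doses, injected intraperitoneally every 2 days. C29 inhibits the nuclear receptor ERRα, and 5-azadC (decitabine) inhibits DNA methyltransferases. Each group of 5 mice gave 2 libraries, and each library held DNA pooled from the tumors of 2 mice. The sources used here do not say whether the pools of a group held different mice, so the SD between them may be in part technical. All groups thus shared a single cell line and host strain, and reads from mouse host cells within a tumor align as tumor reads do, so their share was not measured here.

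In mammals a methyl group is placed mainly on cytosines followed by guanine (CpG), and maintenance methyltransferase DNMT1 copies the mark to the new strand after replication, so that both strands of a CpG usually carry the same state. Methylated CpG-rich promoters are commonly silent, whereas methylation within gene bodies is found in active genes too. Reduced representation bisulfite sequencing (RRBS) cuts DNA with MspI at CCGG, reads in from the cut ends of short fragments, and reports for each cytosine the share of reads that kept a C, that is, were methylated. Values below are percent of reads methylated, differences are in percentage points, and strands were kept apart.

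Mapk15 encodes an atypical MAP kinase (ERK8) known for roles in ciliogenesis and autophagy and for binding ERRα. Mmel1 encodes a membrane metalloendopeptidase of the neprilysin family, and Gm13112 is an antisense transcript that overlaps its start. Gm13049 is an annotated long intergenic noncoding RNA. Gfi1 encodes a zinc finger transcriptional repressor of blood cell development.

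The gains lay in short stretches read from MspI ends, printed here because they show how few CpGs carried each gain. All are the plus strand of GRCm38.p6 (RefSeq genome), 5′ to 3′. Capitals mark the CpGs whose cytosine on the named strand had 10 reads in both vehicle and both combination libraries.
Mapk15, plus-strand cytosines, chr15:75997650-75997705: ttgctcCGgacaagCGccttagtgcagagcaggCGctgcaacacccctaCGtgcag
Mapk15, minus-strand cytosines, chr15:75997835-75997885: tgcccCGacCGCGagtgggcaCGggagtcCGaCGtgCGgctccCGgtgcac
Mapk15, minus-strand cytosines, chr15:75997952-75998005: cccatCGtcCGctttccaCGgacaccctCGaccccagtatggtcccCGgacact
Mmel1, minus-strand cytosine, chr4:154869624-154869653: gctctactccaccCGgagcccaccttggcc
Gm13049, plus-strand cytosines, chr4:150825263-150825312: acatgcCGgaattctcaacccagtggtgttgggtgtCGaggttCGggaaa
Gfi1, plus-strand cytosines, chr5:107726534-107726594: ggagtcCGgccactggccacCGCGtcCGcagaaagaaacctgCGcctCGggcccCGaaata
Gfi1, plus-strand cytosines, chr5:107726768-107726798: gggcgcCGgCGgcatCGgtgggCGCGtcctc
The MspI site is the ccgg formed around the first capital pair in the plus-strand windows and around the last capital pair in the minus-strand windows. The cytosines fell into blocks within which read counts differed by at most 1 from a cytosine to the next. The cytosines of a block were thus read on the same molecules and are not separate measurements. Each block in these windows began at such a site, except that 75997958 to 75997971 at Mapk15 lay at -26 bp from it. In that block C29 2 had 48 reads, against 38 at 75997981 to 75997999 in the same window.

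The 4 tiles with gains were higher by 43.8 points at Gm13049 (chr4:150825001-150826000), 43.4 points at the Mmel1 start (chr4:154869001-154870000, a tile that also overlaps the promoter of an annotated Gm13112 transcript), 39.6 points at Mapk15 (chr15:75997001-75998000) and 27.7 points at Gfi1 (chr5:107726001-107727000), with the reads of each group summed. They ranked 3, 4, 5 and 39 among the 51 called promoter tiles with at least 100 reads in each of the 4 libraries whose combination values all lay above the vehicle values, out of 31497 promoter tiles tested. Just below the 3 that ranked together was the Flna tile at 37.9 points. The last of the 51 was Mcts2 at 25.1 points, the threshold being 25 points with q below 0.01. Of 19 tiles tested in the 5 regions, 5 were called higher and 1 lower, where 4.27% of all tiles were called higher and 12.9% lower. The rule fixed that count, and nothing is read from it. The split was 3 higher and 5 lower with both strands summed, 3 and 3 with 10 reads in any library, and 3 and 4 without the first combination library.

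Only 37 cytosines carried these 4 values, 17 at Mapk15, 4 at Mmel1 and Gm13112, 4 at Gm13049 and 12 at Gfi1. At 14 of the 37, both combination libraries were above both vehicle libraries, and at 2 both were below. Among all cytosines tested, 3.81% were above and 8.86% below. Over the whole member regions, 29 of 168 tested cytosines were above without overlap and 21 below. With C29 alone 15 of 149 were above both vehicle libraries and 26 below (4.99% and 6.05% of all cytosines), and with 5-azadC alone 11 of 151 were above and 21 below (3.5% and 11% of all). C29 alone was above 5-azadC alone at 15 of 129 and below at 9 (9.91% and 3.98% of all).

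**Figure D1:**
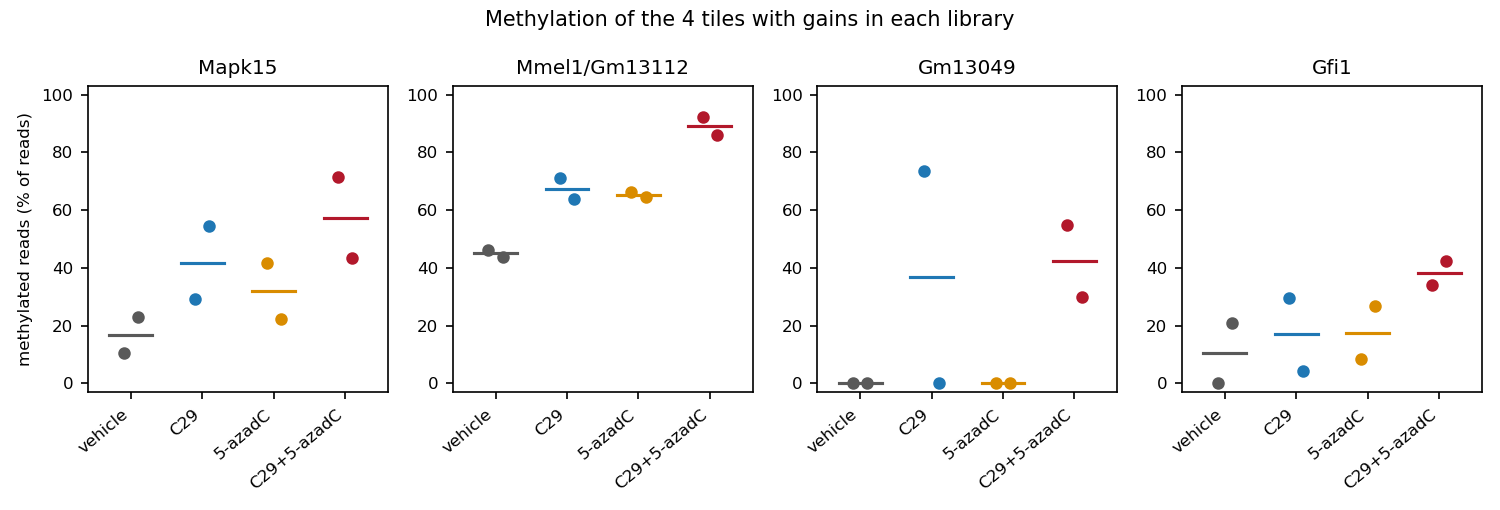
Methylation (percent of reads, vertical axis) of the 4 tiles with gains in each of the 8 libraries, over the cytosines that had 10 reads in vehicle and combination libraries; points are libraries, bars are means of the 2 libraries of a group. The combination libraries lie above the vehicle libraries in each panel, by the rule that chose the tiles, and C29 1 at Gm13049 (73.4%) is the highest point of its panel; some single-drug libraries lack part of these cytosines (at Mapk15, C29 1 covers 9 of 17).

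At Mapk15 the gain lay inside the gene, in coding exons and an intron 3887 to 4230 bp past the gene start at 75993769. The tile counts as a promoter only through an internal annotated transcript start. Over the 17 cytosines, the vehicle libraries stood at 10.6% and 22.9%. The other libraries were at 29.1% and 54.4% with C29, 41.8% and 22.4% with 5-azadC, and 71.5% and 43.3% with both drugs. The mean was 16.7% ± 8.71 (SD, n = 2) in vehicle and 57.4% ± 19.9 (SD, n = 2) in the combination. C29 2, at 54.4%, lay between the combination libraries. C29 1 and 5-azadC 1 had reads at 9 of the 17 cytosines and 5-azadC 2 at 13, so their values rest on other cytosines than the rest.

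The largest differences at Mapk15 were on the minus strand, at 8 cytosines from 75997841 to 75997879 in a coding exon. In this block no read was methylated in either vehicle library (11 and 20 reads per cytosine), and the mean over the block was 87.5% and 70.4% in the combination libraries (21 and 41 reads). C29 2 was at 100% at all 8 cytosines with 21 reads, and 5-azadC 2 was at 17.6% with 17 reads. C29 1 and 5-azadC 1 had no reads there. At 5 of the 8 cytosines both combination libraries were at 100%, whereas 75997857 was at 0% and 26.8% and 75997841 at 100% and 0%. The block thus changed in steps of whole read groups, with 2 distinct values along it in the first combination library and 4 in the second.

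The other end of the same MspI fragment (226 bp) behaved differently. Its 4 plus-strand cytosines, from 75997656 to 75997699, were at 0% and 38.7% in vehicle and at means of 45.8% and 35.3% in the combination. With C29 alone they were at means of 75% and 100%. At 3 of these 4 cytosines C29 was 77.4 points above vehicle (q = 5.55e-14, logistic test on summed reads, adjusted over all cytosines tested), more than the 19.7 points of the combination. The first 5-azadC library was at a mean of 75% on 17 reads and the second had no reads.

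In the neighbouring fragment (124 bp) the vehicle and combination libraries overlapped at 3 of 5 minus-strand cytosines. Of these, 75997962 was at 78.8% and 78.6% in vehicle, 12.9% and 12.5% with C29, and 100% and 4.76% with both drugs. The C29 difference from vehicle was -66.1 points at this cytosine (q = 1.48e-12). At 75997981 and 75997999 both vehicle libraries were at 0%, the combination libraries at 50% and 4.76%, and both C29 libraries at 0%. The plus strand of this fragment had fewer than 10 reads in vehicle 2 and was not tested. Its first CpG, at 75997878 on the plus strand, was at 52.2% in vehicle 1, at 0% in the first combination library (13 reads) and at 100% in the second (20 reads), while the minus-strand cytosine of the same CpG was at 0% in vehicle 1 and at 100% in both combination libraries.

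Gains of 25 points or more formed runs of neighbouring cytosines of 7, 15 and 19 bp within the Mapk15 tile. The next tested cytosine downstream, 153 bp away, differed by -3.69 points. In the adjoining tile, with 43 cytosines in the last exons, vehicle was at 59.2% and 68.9% and the combination at 67.8% and 63.5%. The difference was 3.24 points. It held a further run of 4 plus-strand cytosines, 75998824 to 75998865 (42 bp), that were 34.0 to 43.8 points higher in the combination. Vehicle 1 was at 46.2% (52 reads) and vehicle 2 at 100% (12 reads) at all 4, and the combination libraries were at 100% (52 and 20 reads) except for 65.0% in the second at 75998865, so that vehicle 2 was at or above both. The run began 4 bp from 75998820, which differed by -32.8 points, and single gains lay elsewhere in the tile, such as 47.6 points at 75998666. Over the gene, 18 of 66 tested cytosines were called higher and 7 lower in the combination, a count that the rule shaped. Of all cytosines tested, 4.7% were higher and 10.6% lower.

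Mmel1 and Gm13112 share their gain. It rested on 2 minus-strand cytosines in the first exon of Mmel1, in its 5′ UTR, 14 and 53 bp past the start, within Gm13112 on the opposite strand. Over the 4 cytosines of the tile, methylation was 46.1% and 43.9% in vehicle, 71.1% and 63.9% with C29, 66.2% and 64.5% with 5-azadC, and 92.2% and 86.0% with both drugs. The mean was 45.0% ± 1.50 (SD, n = 2) in vehicle and 89.1% ± 4.32 (SD, n = 2) in the combination. Both combination libraries lay above all 6 others, and the 4 single-drug libraries lay between vehicle and combination. C29 2 had reads at only 2 of the 4 cytosines, which were linked, with 18 reads at each.

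The cytosine at 154869638, printed above, held most of the gain. It was at 0% in both vehicle libraries (77 and 88 reads), 33.3% and 27.8% with C29, 82.5% and 0% with 5-azadC, and 100% and 96.6% with both drugs (37 and 29 reads). The minus-strand cytosine at 154869599 was already at 75.3% and 73.9% in vehicle and reached 100% in both combination libraries. On the plus strand of the same 56 bp fragment the direction turned. There, 154869585 was at 100% in both vehicle libraries (12 and 11 reads) and at 71.4% and 77.2% in the combination, and 154869598 differed by -19.7 points. The CpG read on both strands at 154869598 and 154869599 was thus lower on one strand and higher on the other. The plus-strand partner of 154869638, at 154869637, was not tested because the first combination library had no reads there. It was at 42.9% and 92.3% in vehicle (14 and 13 reads) and at 0% in the second combination library (10 reads). With single drugs it was at 29.4% in C29 1, and at 42.9% and 0% (21 and 8 reads) with 5-azadC.

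The Mmel1 tile value depends on this weighting of strands. With cytosines averaged rather than reads summed, the tile was 18.7 points higher in the combination, and with the 2 minus-strand cytosines alone, which all 8 libraries covered, it was 62.0 points higher. On these 2 cytosines the libraries were at 37.7% and 36.9% in vehicle, 59.3% and 63.9% with C29, 91.4% and 27.6% with 5-azadC, and 100% and 98.3% with both drugs. The 5-azadC libraries thus lay one above all vehicle and C29 libraries and one below them.

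The gain at Mmel1 and Gm13112 was 40 bp long over the tested cytosines. The next tested cytosine to the left, 1 bp away on the other strand, was the one that differed by -19.7 points, and the next tested cytosine to the right lay 1805 bp away. Untested minus-strand cytosines of the tile, without reads in the first combination library, were higher in the second at 154869070 and at 154869752. At 154869070 it was at 100% on 34 reads, and both vehicle libraries were at 0%. There, C29 1 (30 reads) and 5-azadC 1 (62 reads) were at 0% and 5-azadC 2 (18 reads) at 100%. At 154869752 the second combination library was at 100% on 31 reads and vehicle 2 at 38.9%. The C29 libraries were at 75.0% (4 reads) and 70.8% there, and the 5-azadC libraries at 0% (26 reads) and 71.4% (28 reads). At 154869076 the second combination library, both vehicle libraries, C29 1 and 5-azadC 1 were at 0%, and 5-azadC 2 at 100%. The upstream tile chr4:154865001-154866000 went from 87.9% and 89.9% in vehicle to 84.2% and 68.3% in the combination over 6 cytosines. The downstream tile chr4:154871001-154872000 went from 20.5% and 23.8% to 26.3% and 34.9% over 5 cytosines. Within it, 2 minus-strand cytosines of an Mmel1 exon, 154871598 and 154871620 (23 bp), were 52.3 and 34.6 points higher in the combination, both combination libraries lying above both vehicle libraries. A single cytosine at 154872102 was at 100% and 0% in vehicle and at 0% in both combination libraries. A further Mmel1 tile, chr4:154886001-154887000, was called higher by 30.2 points on 2 cytosines, with 18.5% and 22.9% in vehicle, 0% and 27.5% with C29, 58.1% and 26.3% with 5-azadC, and 55.6% and 43.8% with both drugs. Of its cytosines, 154886182 was at 0% in every library with reads, and 154886045 was at 100% and 55.9% in vehicle (12 and 34 reads) and at 100% in both combination libraries, so the tile values depend on how the reads fell between them. The 5-azadC 1 value rests on 154886045 alone.

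At Gm13049 the gain lay upstream of the annotated start at 150825733, at distances of -464 to -427 bp for the tested cytosines that gained. Over the 4 tested cytosines, all on the plus strand, no methylated read was found in the vehicle libraries (128 and 173 reads). These sums count the reads of linked cytosines more than once, so no upper limit is drawn from them. C29 1 was at 73.4% and C29 2 at 0%, and the combination libraries were at 55.0% and 30.0%. The 5-azadC libraries were at 0% but covered only 1 of the 4 cytosines (16 and 53 reads). That cytosine, 150825082, was at 0% in all 8 libraries, so the tile value in 5-azadC says nothing about the cytosines that gained.

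The 3 that gained, 150825269, 150825299 and 150825306, formed a run of 38 bp from a single MspI end. They were at 0% in vehicle (18 and 47 reads), at 100% in C29 1 (23 reads), at 0% in C29 2 (43 reads), at a mean of 59.3% in the first combination library (68 reads) and at 46.2% in the second (39 reads). Neither 5-azadC library had reads there. On the minus strand, 150825270, the partner of 150825269, was at 0% in vehicle 1 (34 reads), at 41.9% in C29 1, at 0% in both 5-azadC libraries (21 and 45 reads), and at 73.0% and 0% in the combination libraries (37 and 12 reads). It was not tested because vehicle 2 had 8 reads. Methylated reads were also found at 2 other untested minus-strand cytosines. The first, 150825234 (-499 bp), was at 0% in vehicle (33 and 8 reads), at 41.9% in C29 1, at 0% in both 5-azadC libraries, and at 32.4% and 0% in the combination. The second, 150825600 (-133 bp), was at 0% in vehicle (34 and 41 reads) and at 20.7% in the second combination library (92 reads), with no reads in any other library. At the CpG read on both strands, 150825269 and 150825270, the first combination library and C29 1 were thus methylated on both strands, and the second combination library on the plus strand only. The nearest tested cytosines were 187 bp to the left, at 0% throughout, and 1935 bp to the right. That single cytosine, in the gene body, was at 2.47% and 0% in vehicle, 66.2% and 0% with C29, 50% and 0% with 5-azadC, and 23.8% and 0% with both drugs, so that in each treated group the first library was methylated and the second was not.

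At Gfi1 the tested cytosines lay at -504 to -756 bp from the start at 107726036 (the gene is on the minus strand), within exons of the neighbouring transcript A430072P03Rik. Over its 12 tested cytosines, all on the plus strand, methylation was 0% and 20.9% in vehicle, 29.5% and 4.43% with C29, 8.29% and 26.7% with 5-azadC, and 33.9% and 42.3% with both drugs. The mean was 10.5% ± 14.8 (SD, n = 2) in vehicle and 38.1% ± 5.94 (SD, n = 2) in the combination. 5-azadC 1 covered 7 of the 12. Both combination libraries were the highest of the 8, and vehicle 2 lay within the range of the single-drug libraries.

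The 12 cytosines formed 2 blocks. In the first, 7 cytosines from 107726540 to 107726588 in a 211 bp fragment, the mean was 0% and 1.19% in vehicle, 8.66% and 7.45% with C29, 8.29% and 24.6% with 5-azadC, and 42.9% and 28.6% with both drugs. The combination libraries had 10 and 11 reads per cytosine there. Each cytosine of the block was at exactly 0% or 100% in these 2 libraries, and they differed in which were methylated: 107726540 was at 100% and 0%, 107726560 at 0% and 100%, and 107726588 at 100% in both. The last was the only one of the 12 at which both combination libraries were above both vehicle libraries (0% and 4.17%). It was at 58.1% and 57.4% in the 5-azadC libraries, 55.7 points above vehicle (q = 2.14e-11), and at 30.3% and 0% in the C29 libraries. In the second block, 5 cytosines from 107726774 to 107726792 in a 35 bp fragment, vehicle was at a mean of 0% and 60.0% and the combination at 27.4% and 60.0%.

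The untested cytosines of the Gfi1 tile went in both directions. Over all 53 of its cytosines with 10 reads in any library, methylation was 28.0% and 34.3% in vehicle, 36.6% and 16.8% with C29, 26.0% and 36.8% with 5-azadC, and 28.5% and 28.4% with both drugs. A minus-strand block of 5 cytosines from 107726759 to 107726772 was at means of 77.9% and 91.6% in vehicle and at 25% (8 reads) and 15% (32 reads) in the combination. It was left out of the test because the first combination library had fewer than 10 reads. On the plus strand, 107726343 was at 15.4% and 0% in vehicle (13 and 32 reads), 17.6% and 43.2% with C29, 41.2% in 5-azadC 2, and 74.7% and 88.9% in the combination (83 and 9 reads), while its neighbour 107726298 was at 0% in all of these libraries but 5-azadC 2 (32.4%). This pair was left out because the second combination library had 9 reads. With a minimum of 5 reads the tile differed by -4.60 points on 25 cytosines, and without the first combination library it differed by -10.7 points on 24 cytosines. With both strands of each CpG summed it was 12.7 points higher. Within the Gfi1 body and upstream region, 14 of 78 tested cytosines were called higher in the combination and 13 lower (all cytosines: 4.7% and 10.6%). The rule shaped this count too. The tile over the coding exons, chr5:107721001-107722000, was at 36.1% and 38.7% in vehicle and 36.3% and 22.4% in the combination over 32 cytosines.

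**Figure D2:**
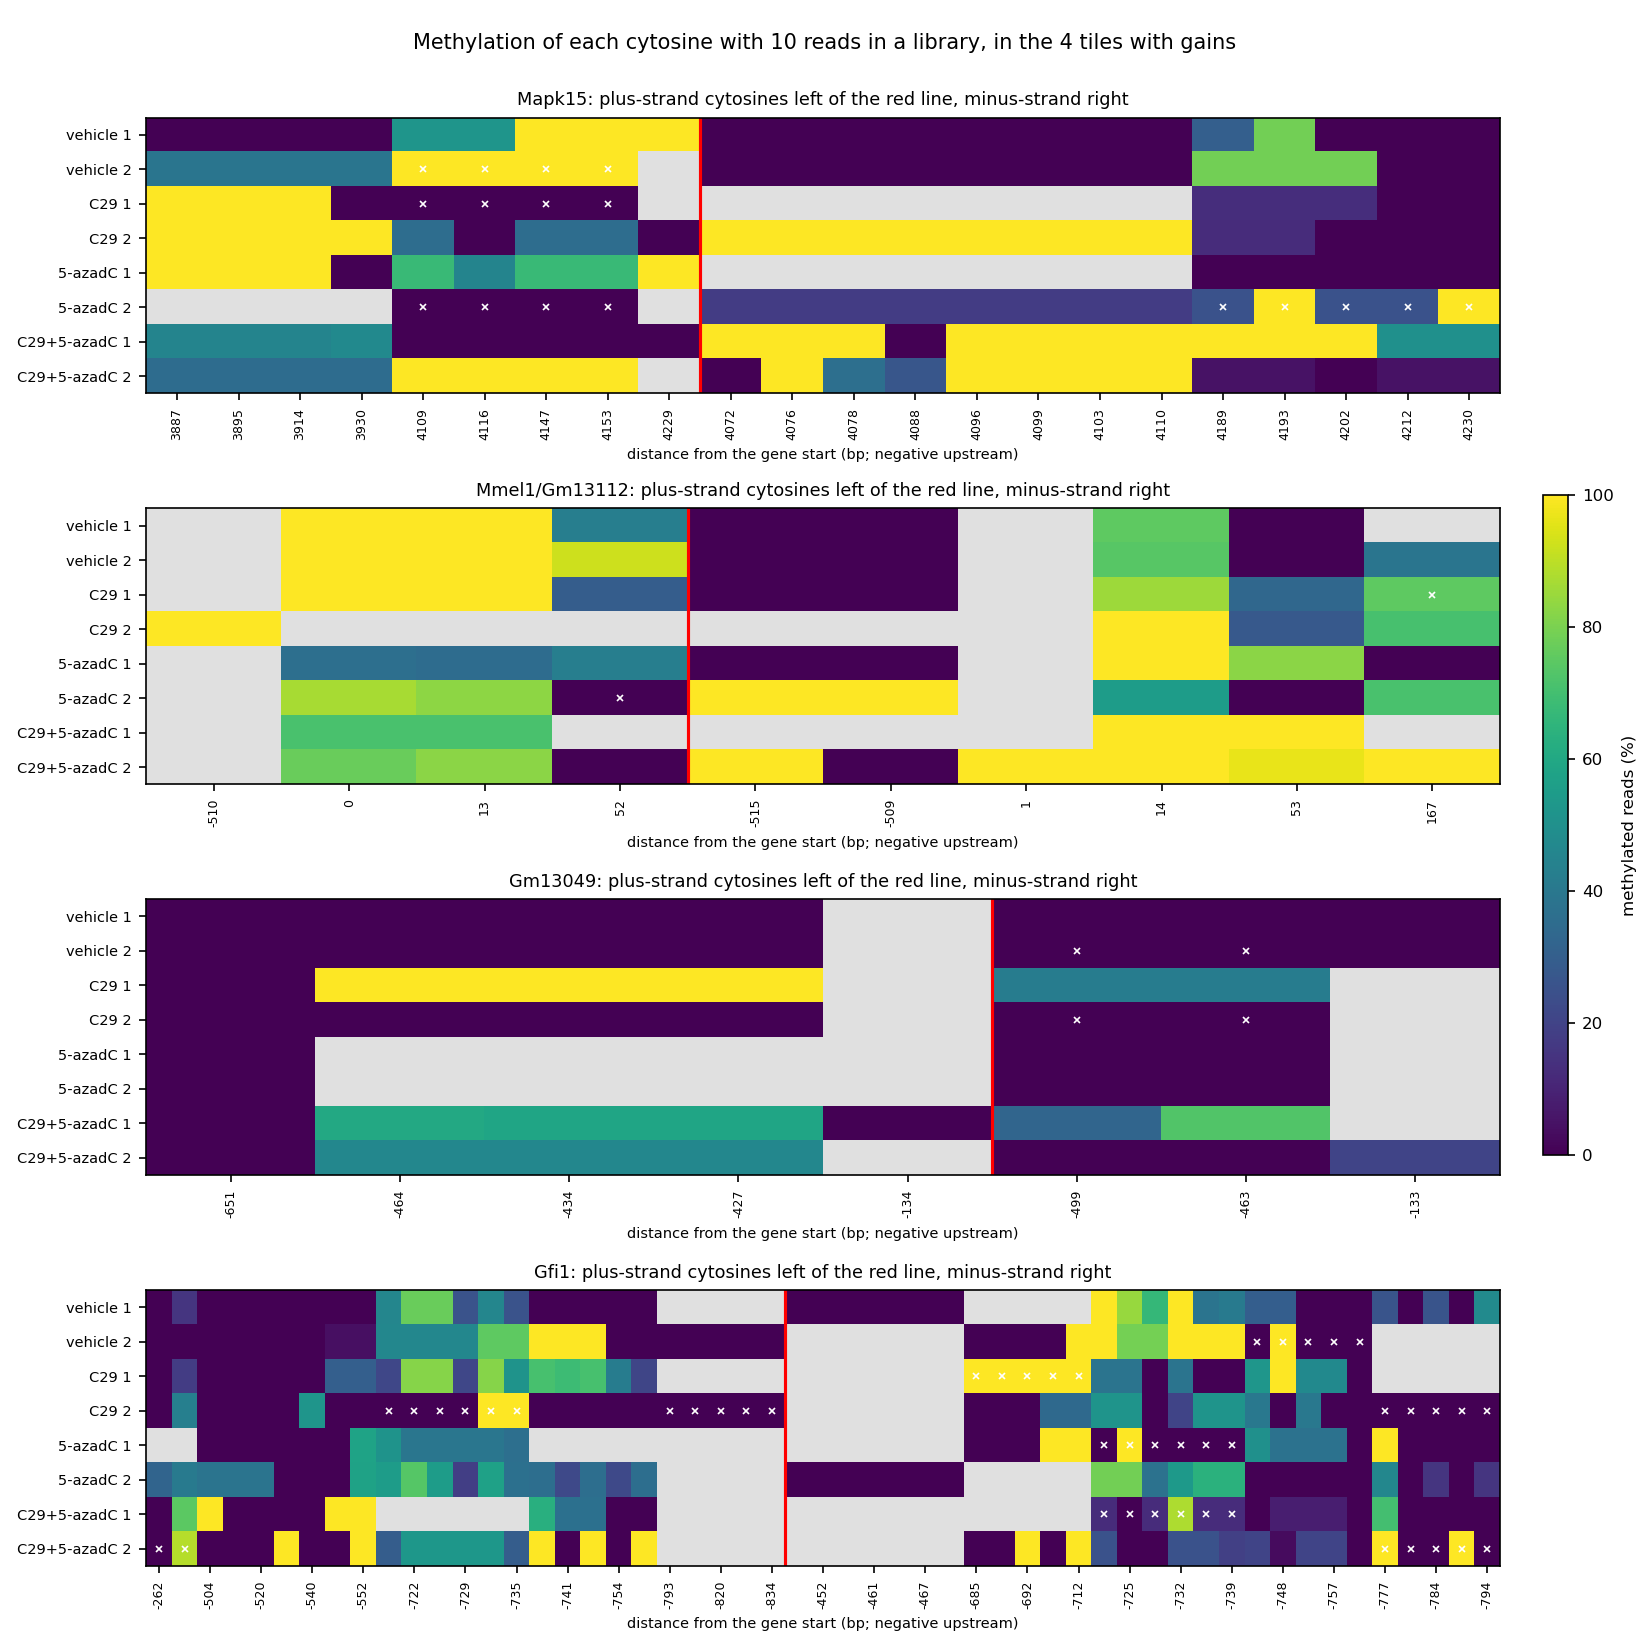
Each cytosine of the 4 tiles that had 10 reads in at least 1 library (columns, labelled by distance in bp from the gene start, every other label printed at Gfi1) in each of the 8 libraries (rows), colored by percent of reads methylated; grey marks no reads, a white cross fewer than 10 reads, and the red line parts plus-strand from minus-strand cytosines. Neighbouring columns share values in blocks, the Mapk15 block of 8 minus-strand cytosines is at 0% in both vehicle libraries, and the minus-strand Gfi1 cytosines are lower in the combination than in vehicle where both have reads from -725 to -739 bp.

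The strands of a CpG often differed across the members. In pairs of strands read at least 10 times in a library, the gap between the strands was 25 points or more in 248 of 472 CpG and library pairs of the member regions (52.5%) and in 52 of 83 of the 4 tiles (62.7%). The share over all CpGs of the series was not computed, so these shares are not read as particular to the members. At cytosines whose mean over the libraries lay between 20% and 80%, single libraries were at exactly 0% or 100% in 49.0% of values in the 4 tiles, 37.7% in the member regions and 43.2% over all cytosines of the series. The sources used here name no molecular identifiers, so read numbers were not taken as counts of molecules. The q-values of single cytosines cover the counting of reads only. In a tile, a read enters once for each linked cytosine it covers. The q-values of tiles thus treat linked values as separate reads and come out too small even for the counting.

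Whether a single drug gave the gains was asked of each drug against vehicle, and the same vehicle libraries had chosen the tiles, in part for their low values, so these differences are not independent of the choice. The logistic test summed the reads of the 2 libraries of a group and so did not use the spread between them; with 2 libraries against 2, an exact permutation test cannot give a p below 0.33. With C29 alone, 2 of 20 tiles of the member regions were called higher and 2 lower, against 6.11% and 6.42% of all tiles tested. With 5-azadC alone, 1 of 17 was called higher and 3 lower, against 3.4% and 14.3% of all tiles. The median over the member tiles was -0.60 points with C29 and -0.07 points with 5-azadC, beside medians over all tiles of 0 and -5.41 points. Among member cytosines, 16 of 149 were called higher and 22 lower with C29 (all cytosines: 5.49% and 6.8%), and 14 of 151 higher and 24 lower with 5-azadC (all cytosines: 3.91% and 11.3%). With both drugs, 40 of 168 were higher and 22 lower (all cytosines: 4.7% and 10.6%), a count that the rule shaped.

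C29 alone called 1 of the 4 tiles. The Gm13049 tile was 27.1 points above vehicle (q = 7.44e-26), and the whole difference came from C29 1: without that library the difference was 0, and without C29 2 it was 73.4 points. That q-value counts the reads of linked cytosines more than once. Each of the 3 linked cytosines that differed had q = 2.87e-08 by itself in the same logistic test. At Mmel1 and Gm13112, C29 was 23.1 points above vehicle on 2 cytosines, below the 25 points asked for, and 26.6 points without C29 1, which passed. Without C29 2 it was 10.7 points on 7 cytosines. The cytosine at 154869638 was called by itself, 31.9 points higher (q = 3.71e-13), with both C29 libraries above both vehicle libraries. At Mapk15 the 9 cytosines with 10 reads in all 4 libraries differed by 2.18 points. That value joined the 3 called gains on the plus strand with the 2 called losses on the minus strand, and it was -13.4 points without vehicle 1 and 37.6 points, on 17 cytosines, without C29 1, which passed the threshold. At Gfi1 the tile differed by -12.8 points with C29 on 20 cytosines. Without vehicle 2 the difference was -4.15 points (25 cytosines) and without C29 2 it was -7.61 points (26 cytosines). It was -15.7 points without vehicle 1 and -15.9 points without C29 1. In the full comparison 4 of the minus-strand cytosines were called lower, with the largest difference, -73.8 points, at 107726768.

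5-azadC alone called none of the 3 tiles it could be tested at, by the 25 point and q threshold. At Mmel1 and Gm13112 the tile was 17.6 points above vehicle on 6 cytosines, 35.0 points without 5-azadC 1, which passed the threshold, and 0.40 points without 5-azadC 2. The cytosine at 154869638 was 42.3 points higher (q = 1.27e-18) through 5-azadC 1 alone, 5-azadC 2 being at 0%, and the plus-strand cytosines at 154869585 and 154869598 were called lower, with differences of -29.7 and -32.7 points. At Gfi1 the difference was 3.80 points on 13 cytosines and -3.65 points without 5-azadC 2. On the 7 cytosines read 10 times in all 8 libraries it was 17.6 points. At Gm13049 the only cytosine tested was at 0% in all libraries. At Mapk15 no cytosine of the tile had 10 reads in all 4 libraries. Each 5-azadC library taken alone against vehicle gave 15.6 points (5-azadC 1, 9 cytosines) and 17.6 points (5-azadC 2, 8 cytosines), each on its own cytosines. With a minimum of 5 reads both 5-azadC libraries could be compared with vehicle on 4 cytosines, and the difference was -28.7 points (q = 5.43e-08), past the threshold.

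**Figure D3:**
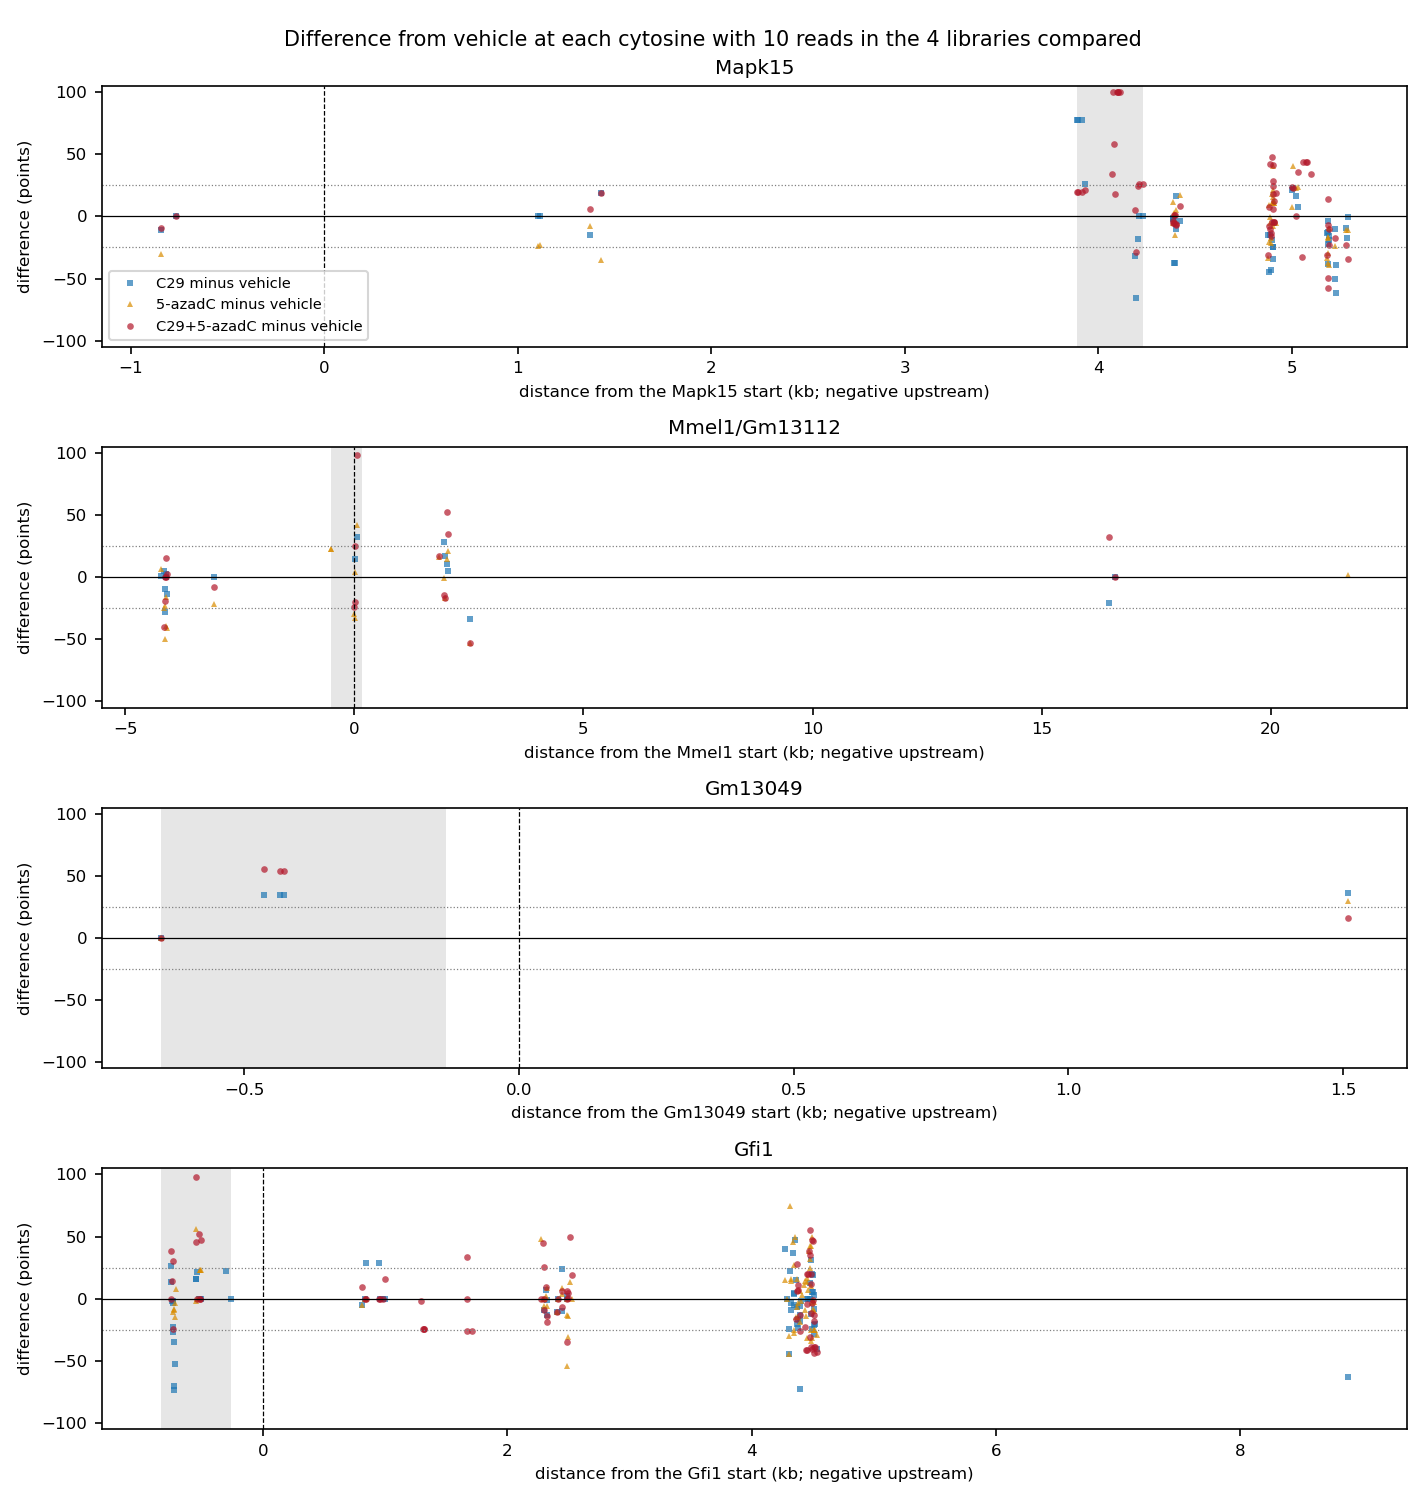
Difference from vehicle in percentage points (vertical axis) at each member cytosine with 10 reads in the 4 libraries compared, against distance from the gene start in kb, for C29 (squares), 5-azadC (triangles) and both drugs (circles); grey bands mark the cytosines of the 4 tiles, dotted lines 25 points either way, dashed lines the gene start. Gains of the combination sit in narrow columns, with losses among them in each gene except Gm13049. C29 exceeds the combination at several cytosines, among them 3 at Mapk15 (77.4 against 19.7 points).

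C29 alone against 5-azadC alone used no library that had chosen the members. Of 19 member tiles, 2 were higher with C29 and 1 lower, against 14% and 3.64% of all tiles, and of 129 member cytosines 13 were higher and 12 lower, against 10.1% and 4.42% of all cytosines. At 10 reads in all 4 libraries, none of the 3 tiles with gains that could be tested was called by the logistic test. C29 differed from 5-azadC by -0.09 points at Mmel1 and Gm13112 on 2 cytosines, by 0 at Gm13049 on 1 cytosine and by -1.87 points at Gfi1 on 12 cytosines. The Gm13049 value turned on the cytosines let in. It was 29.4 points on 8 cytosines with 10 reads in any library and 29.9 points on 3 cytosines without C29 2, both past the threshold, and 22.9 points with both strands summed. Mapk15 could be compared only with fewer reads or libraries, at -32.0 points on 4 cytosines with 5 reads (past the threshold), -13.5 points on 9 without 5-azadC 2 and -2.92 points on 22 with 10 reads in any library. At Mmel1 and Gm13112 that value depends on which 5-azadC library is kept, being 32.8 points without 5-azadC 1 and -30.9 points without 5-azadC 2, both past the threshold in opposite directions. At Gfi1, 107726588 was lower with C29 (q = 1.4e-05), with 30.3% and 0% against 58.1% and 57.4%. The called tiles lay elsewhere: chr15:75996001-75997000 of Mapk15 was at 100% in both C29 libraries and at 69.6% and 72.2% with 5-azadC on 2 cytosines, chr4:154888001-154889000 of Mmel1 was at 23.6% and 70.8% against 0% and 2.70% on 1 cytosine, and chr4:154882001-154883000 was lower, at 0% and 33.3% against 66.7% and 45.8% on 1 cytosine.

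The combination and the single drugs were set side by side without a test, since the combination values chose the tiles. Over the tested cytosines, the combination libraries lay above all single-drug libraries at Mmel1 and Gm13112 and at Gfi1. Over all 53 Gfi1 cytosines they were at 28.5% and 28.4%, below C29 1 (36.6%) and 5-azadC 2 (36.8%). They overlapped the C29 libraries at Mapk15 (43.3% and 71.5% against 29.1% and 54.4%) and at Gm13049 (55.0% and 30.0% against 73.4% and 0%). Of the 51 ranked tiles, C29 alone called 9 higher and 0 lower by the logistic test, and 5-azadC alone 4 of the 48 it could be tested at and 0 lower, again against the vehicle libraries that ranked them. Of all tiles, C29 called 6.11% higher and 6.42% lower, and 5-azadC 3.4% and 14.3%.

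Reads over the tiles varied between libraries. Read counts were summed over cytosines, in the tile and in the library, so a read counted once for each CpG it covered. At Mapk15 the combination libraries had 10.5 and 13.4 such counts over the tile per 1000000 of the library, vehicle 6.57 and 5.74, C29 3.74 and 8.66, and 5-azadC 5.41 and 2.32. At Gm13049 they had 5.40 and 5.78, vehicle 3.26 in both, C29 2.24 and 2.28, and 5-azadC 0.91 and 1.78. The combination was thus the most deeply read group at these 2 tiles. At Mmel1 and Gm13112 the groups overlapped, with 1.76 and 5.72 in the combination and 3.19 and 4.65 in vehicle, and at Gfi1 likewise, with 8.44 and 14.0 against 15.9 and 11.5. The part of coverage in the gains was not tested.

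**Figure D4:**
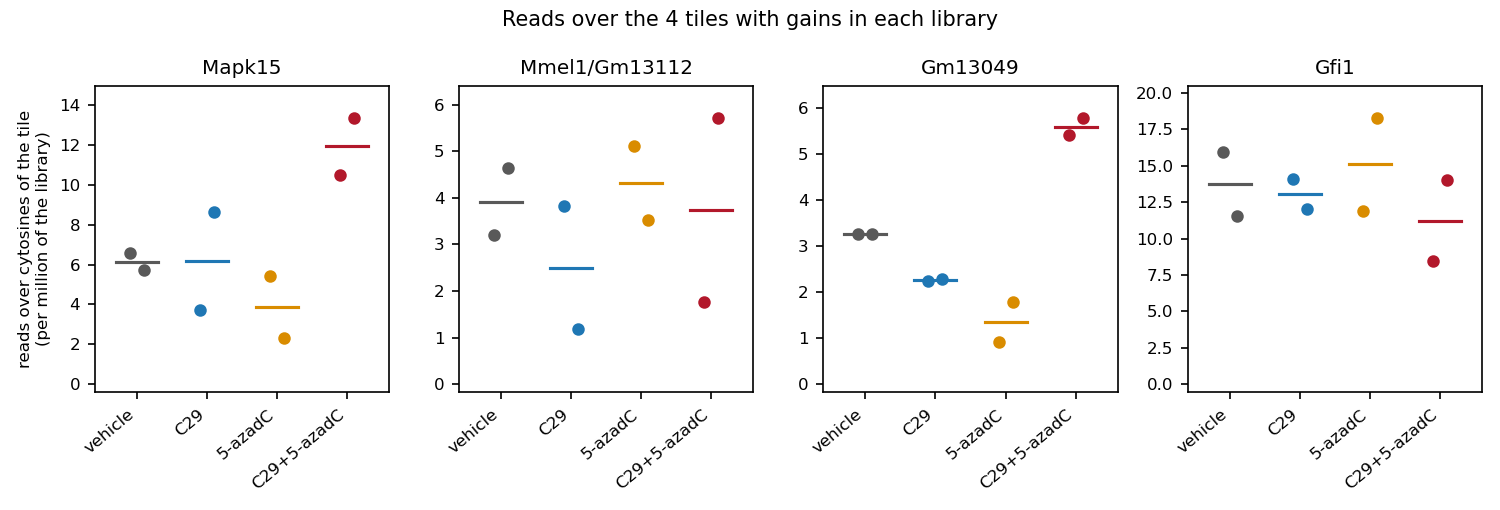
Read counts summed over the cytosines of each of the 4 tiles, per 1000000 of the same sum over the library (vertical axis, from 0, a different scale in each panel), in each library. A read counts once for each CpG it covers. Points are libraries and bars are means of 2. The combination libraries are the highest at Mapk15 (10.5 and 13.4) and Gm13049 (5.40 and 5.78) and overlap vehicle in the other panels.

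The library totals were read counts summed over all cytosines, spiked controls included, so a read counted once for each CpG it covered. These totals ran from 51359825 to 81299065, with a median of 21 to 30 reads per cytosine and 82.0% to 87.0% of cytosines at 10 reads or more. The combination libraries had the lowest totals. Spiked controls were 97.5% to 98.3% methylated for the methylated control and 0.22% to 0.33% for the unmethylated control.

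The tiles differed in sequence. The Mapk15 and Gfi1 tiles held 51 and 65 CpGs, the Mmel1 and Gm13049 tiles 14 and 19, beside a median of 32 in the 31497 promoter tiles. MspI sites (CCGG) numbered 3 at Mapk15, 5 at Mmel1, 3 at Gm13049 and 9 at Gfi1, with a median of 4, and 99.8% of promoter tiles held at least 1. The extended half-site bound by ERRα (TNAAGGTCA, searched on both strands) was found once, as TGAAGGTCA at chr4:154869011-154869019 in the Mmel1 and Gm13112 tile, and 4.55% of promoter tiles held it. No cytosine with 10 reads lay within this match.

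By root mean square distance over the 8 library values, across 30060 promoter tiles with at least 30 reads in each library, the tiles most like Mapk15 were those of Pdzd11 (9.38 points), Gm14041 and Fgf13 (both 9.53 points). Those most like Mmel1 and Gm13112 were Gm10723 (9.83), Pou3f4 (13.0) and Tomm22 (13.3). Those most like Gm13049 were Gm22951 (8.99), Tmem141 (10.2) and Sat2 (12.8). The Gfi1 tile, taken over all of its cytosines, had Lrrtm1 (3.35) and Rps6ka3 (3.87) among its nearest, neither of which was higher in both combination libraries than in both vehicle libraries.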

How the data were processed

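RRBS of tumor DNA was made by Diagenode from 8 libraries, 2 per group, assigned from the titles. The submitters' processing notes name FastQC 0.11.8, Trim Galore 0.4.1, Bismark 0.20.0 and methylKit 1.7.0 with mm10/GRCm38. The deposited files give, for each cytosine and strand, the methylated fraction and the count of reads, as the authors made them; methylated reads were taken as fraction times count, whole within 0.01 for at least 99.9997% of values. Cytosines needed 10 reads in the 4 libraries compared, and the deepest 0.1% were left out. Reads were summed over tiles of 1000 bp and compared by a logistic likelihood ratio test on summed reads, with Benjamini-Hochberg q-values over all tiles or all cytosines, a call being q below 0.01 and at least 25 points. Promoters were the 1000 bp upstream of GENCODE M21 transcript starts. The gain tile of a member was the tile over its promoter with the largest pooled gain of the combination. All gain tiles also met the conditions of the ranked list: called, 100 reads per library and no overlap with vehicle. Read positions all fell on CpGs of the GRCm38.p6 genome. The members and lists were chosen with earlier results of these data known. The q-values come from summed reads and do not measure the spread between pools. Alternatives were other read minimums, an F test, a Cochran-Mantel-Haenszel test, edgeR 4.0.16, other tiles and strand handling, and each library left out; Python 3.11.15, NumPy 2.4.6 and SciPy 1.17.1 were used and the tests were tested on simulated data. Some items among the ranked and nearest tiles are not reported here.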

Additional observations from a re-analysis of the deposited data

How the results depend on the processing

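Each gain was recomputed under 11 other settings and without each library in turn. The gains at Mapk15 (26.5 to 54.6 points without a library), Mmel1 and Gm13112 (36.6 to 47.2) and Gm13049 (26.8 to 55.0) kept their direction where a value could be had, except that Gm13049 was at 0 on the 1 cytosine read 10 times in all 8 libraries. Mmel1 and Gm13112 moved to 62.0 points with 20 reads or with 10 reads in all 8 libraries, and to 18.7 with cytosines unweighted. Gfi1 reversed to -4.60 points with 5 reads and -2.22 with 10 reads in any library, moved to 12.7 with strands summed, and ran from -10.7 to 26.9 without a library.

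The overdispersion-corrected F test, with 2 residual degrees of freedom, and the edgeR quasi-likelihood test called 0 tiles in any comparison, in the members and among all tiles. At an unadjusted p under 0.05 edgeR had 0 of 20 member tiles for C29 (3809 of all 153939), 0 of 17 for 5-azadC (7409 of 159502) and 1 of 19 for C29 against 5-azadC (6473 of 156004), and the F test 1 (6683), 2 (11269) and 1 (10290). The F test called 0 member cytosines too. Calls of member tiles, either direction, were 4 for C29 (1 with 20 reads, 2 with 10 reads in all 8 libraries, 4 to 5 without a library), 4 for 5-azadC (5 to 9 without a library), 6 for the combination (1 with 20 reads, 3 with all 8, 5 to 9 without a library) and 3 for C29 against 5-azadC (5 with 5 reads, 5 with 10 reads in any library, 0 with all 8, 5 to 10 without a library). Calls of member cytosines were 38 for C29 (11 with 20 reads, 15 with all 8, 57 to 69 without a library), 38 for 5-azadC (16, 21, 55 to 69), 62 for the combination (10, 30, 65 to 87) and 25 for C29 against 5-azadC (42 with 5 reads, 45 to 62 without a library). Fewer or more cytosines passed the read minimum in these settings.

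Single-drug differences reversed at Mapk15 with C29 (-12.1 points with 5 reads, -2.90 with strands summed, -13.4 to 37.6 without a library). At Gfi1 they reversed with C29 (7.59 with 20 reads or all 8 libraries) and with 5-azadC (-3.26 with 5 reads, -2.80 with strands summed, -3.65 to 6.16 without a library, but 17.6 with all 8). C29 against 5-azadC at Gm13049, 0 on 1 cytosine, was 29.4 with 10 reads in any library, 22.9 with strands summed and 0 to 29.9 without a library. C29 against 5-azadC reversed at Mmel1 and Gm13112 (1.93 with strands summed, 3.79 with 10 reads in any library, 2.13 unweighted, 12.2 without C29 1, -30.9 to 32.8 without a library) and at Gfi1 (1.98 unweighted, -15.2 to 4.91 without a library). The cause was not tested. With the replicate number as a replicate block (Cochran-Mantel-Haenszel test) the combination differences were 39.9, 43.8, 42.0 and 28.1 points at Mapk15, Mmel1, Gm13049 and Gfi1, and calls of member tiles for C29 against 5-azadC rose from 3 to 5. Same-numbered libraries did not deviate together over the tiles as a whole (r from -0.0085 to 0.0115 across 120955 tiles, which are not independent). No pairing by number was thus seen there, but the correlation cannot show whether samples were paired at some sites only.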
